A study of Mus musculus with 18 samples.

Results

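The libraries compared here came from KPCA.B, a murine cell line for ovarian cancer of the high-grade serous kind, whose cells carried 1 of 2 short hairpin RNAs directed at the same gene, Ndufa5. They were the 3 libraries labelled shNdufa5_1 and the 3 labelled shNdufa5_2 among cells grown in PCM, 6 of the 18 libraries of the series, taken by their labels. PCM is medium conditioned by proliferating KPCA.B cells that had received only the vehicle DMF, mixed 1:1 with fresh high-glucose DMEM with 4% heat-inactivated serum, 2 ng/mL of EGF and a supplement of insulin, transferrin and selenium. The other libraries used beside them were the 3 shControl libraries in PCM, which carried a control hairpin, and the 3 libraries of each Ndufa5 hairpin in SCM, which is the same mix made with medium from cells driven into senescence by cisplatin. All groups thus shared the cell line, a hairpin, the supplements and a conditioned medium. Polyadenylated RNA was sequenced, and each gene was given as FPKM, a fragment count scaled by gene length and library size. Setting the hairpins against each other asks how far cells that carry 2 hairpins against the same gene differ, without the control libraries. In that comparison the control libraries enter only through the filter on low genes and the variance estimates behind the p-values. Whether the 3 libraries of a group stem from separate cultures is not in the labels, so the p-values speak for the spread between these samples alone, which may be technical. No batch is named in the labels used here.

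The Ndufa5 protein is one of the accessory subunits of complex I, the respiratory enzyme of the inner mitochondrial membrane that oxidises NADH, passes the electrons to ubiquinone and pumps protons. Complex I is built from an N module that takes up NADH, a Q module that reduces ubiquinone and in whose matrix arm NDUFA5 sits, and proximal and distal membrane arms that pump protons. Its subunits come from the nuclear genome, except for a core set encoded in the mitochondrial genome. A short hairpin RNA is cut into a small RNA that guides the silencing machinery to matching transcripts, and each hairpin sequence can also act on transcripts other than its target.

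The depth recovered from the steps of the low FPKM values was 15.3 to 16.4 M fragments (M, mega) in the shNdufa5_1 libraries and 13.8 to 16.8 M in those labelled shNdufa5_2. Pearson r between libraries of the same hairpin was 0.979 to 0.989. Replicate 2 of shNdufa5_1 held more of Gm23935, a short feature that resembles ribosomal RNA, at 0.586% of fragments against 0.187 to 0.249% in the other shNdufa5_1 libraries and 0.333 to 0.409% in those labelled shNdufa5_2. Of 54532 genes in the table, the 11084 with a mean of at least 1 FPKM over all 18 libraries were tested.

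Ndufa5 itself was low with shNdufa5_1 and stayed near the control level with shNdufa5_2. In GRCm38 it (ENSMUSG00000023089) spans bases 24518666 to 24528013 of chromosome 6, minus strand. Its level was 6.23, 6.39 and 6.85 FPKM in the shNdufa5_1 libraries, 18.7, 17.2 and 16.8 FPKM in the libraries labelled shNdufa5_2, and 15.2, 19.0 and 22.1 FPKM in shControl. The shNdufa5_1 libraries lay below all others, while those labelled shNdufa5_2 lay within the range of shControl. The mean with shNdufa5_1 was 37.0% of that with shNdufa5_2 (6.49 ± 0.324 against 17.5 ± 1.00 FPKM, SD, n = 3 each). On the scale of log2(FPKM + 1), used for every difference below, shNdufa5_1 minus shNdufa5_2 was -1.31 ± 0.12 (SE, limma adjusted p = 1.57e-07). The exact two-sided permutation test of the FPKM values returned p = 0.1, the lowest that groups of 3 can reach. The libraries labelled shNdufa5_2 differed from shControl by -0.08 (95% interval -0.34 to 0.18, limma adjusted p = 0.647), and the exact permutation test gave p = 0.6. The target gene thus gave no check of the label shNdufa5_2 in PCM, which limits every direction drawn from those libraries. In bulk RNA, a lower level in every cell and fewer cells with the transcript cannot be told apart. The sequences of the hairpins were not analysed here.

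**Figure D1:**
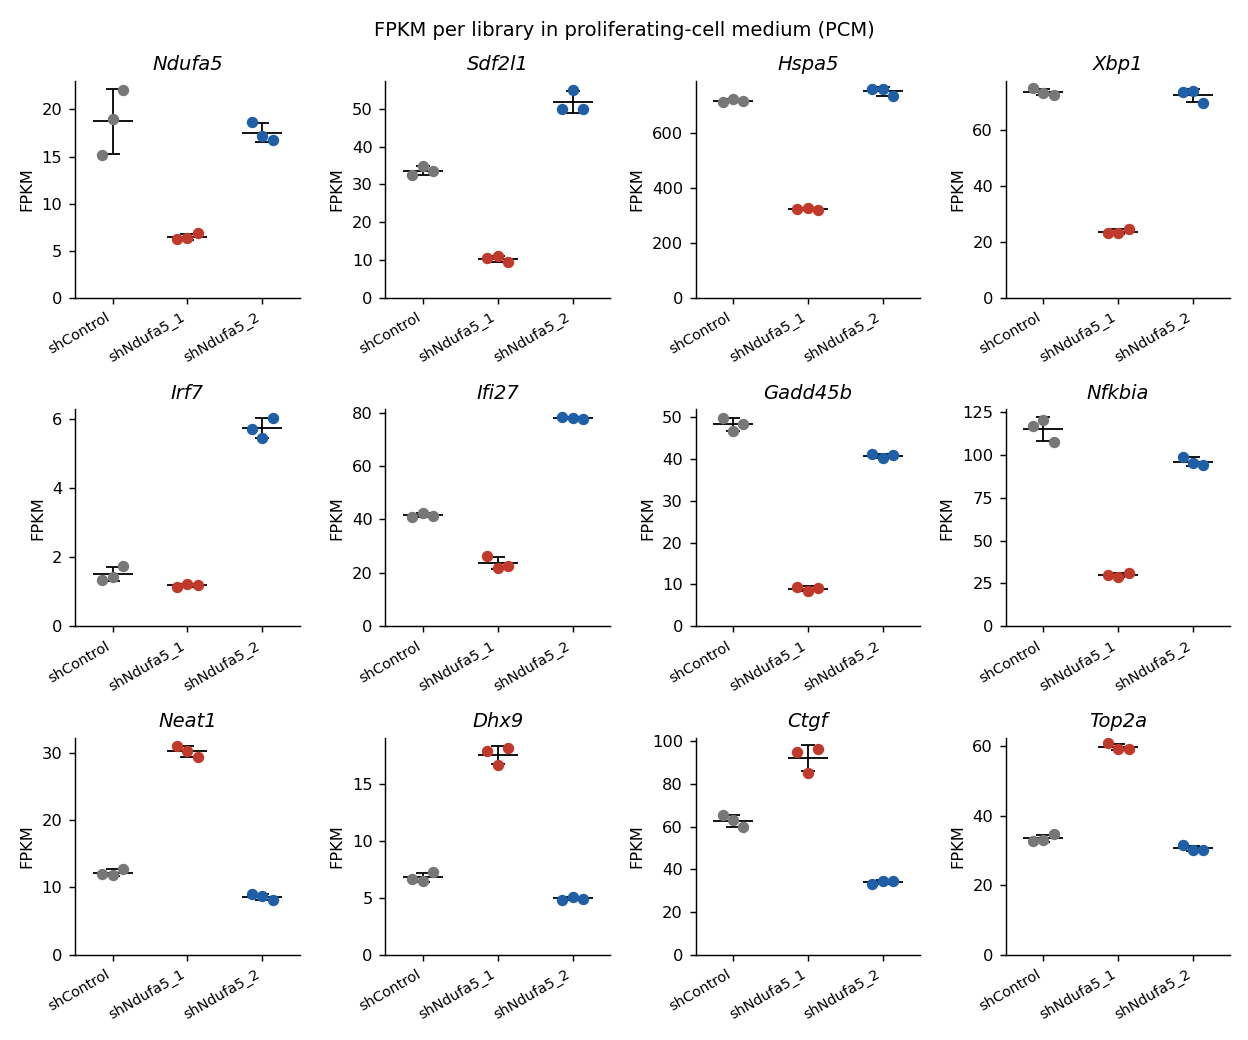
FPKM (y axes, from 0) of 12 genes in each PCM library of shControl (grey), shNdufa5_1 (red) and shNdufa5_2 (blue); points are libraries, bars the mean and SD of 3. Ndufa5 is at 6.23 to 6.85 FPKM with shNdufa5_1 and at 16.8 to 18.7 FPKM with shNdufa5_2, and in each of the 12 panels the 2 hairpins do not overlap.

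The transcriptomes of the 2 hairpins differed widely and mostly by small amounts. Of the 11084 genes, 6967 (62.9%) passed limma's test at an adjusted p under 0.05. They comprised 3313 genes (29.9%) higher with shNdufa5_1 and 3654 (33.0%) lower. Without replicate 2 of shNdufa5_1, 6687 genes passed, 3167 higher and 3520 lower. The middle gene among those that passed differed by 0.43 on the log2 scale, and 4199 of them (60.3%) differed by less than 0.5. A difference of at least 2-fold was found for 299 genes (2.70%), 128 of them higher (1.15%) and 171 lower (1.54%). FPKM ranges of the hairpins did not overlap for 7300 genes (65.9%), 3494 higher (31.5%) and 3806 lower (34.3%). These shares are the background against which the counts of each gene group below are read.

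The split between higher and lower genes depended on the scaling. With the deposited values the median of all differences was -0.02. Library totals are here the sums of all FPKM values of a library, not its depth. In these sums short features weigh more than in fragments. Gm23935 was at 31614 to 99866 FPKM with shNdufa5_1, where the sums were 298720 to 368940. With shNdufa5_2 it was at 59660 to 73606 FPKM, with sums of 369810 to 389120. Scaled by library totals, the median moved to 0.17 and the calls split into 4618 higher and 1797 lower. Fragment totals gave 3934 and 3088, and totals without features under 300 bp gave 5080 and 2148. Differences below are on the scale of the deposited values unless another scaling is named, and were not centred on the median gene. Values with library totals are to be read beside the median of 0.17 and the 4618 higher and 1797 lower genes of that scaling.

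Differences also followed the base composition of the transcripts. In the lowest of 10 equal bins of GC content the median difference was 0.36 and 60.1% were higher with shNdufa5_1. In the highest bin the median was -0.25 and 9.84% were higher. Across 11074 genes, which are not independent replicates and share the libraries, the Spearman rho of the difference was -0.43 with GC content and 0.29 with exon length. In SCM the same rho values were -0.15 and 0.16. Whether GC content accounts for any difference was not tested, and list medians after removal of each library's trend with GC and length are given below as "GC-removed" where they differ by over 1.5 times or change sign.

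**Figure D2:**
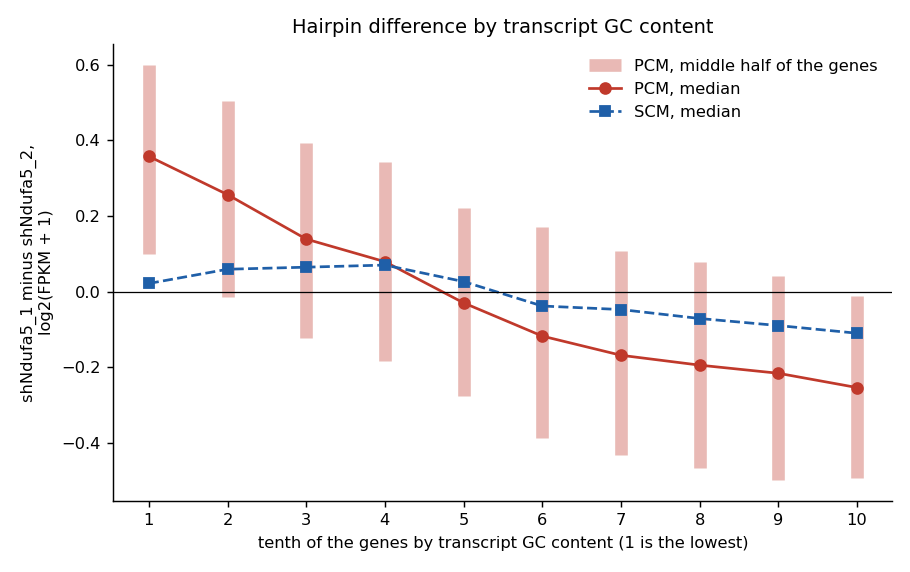
Median of shNdufa5_1 minus shNdufa5_2 on log2(FPKM + 1) (y axis) for 10 equal bins of the tested genes ordered by transcript GC content (x axis), in PCM (red, with bars from the first to the third quartile of the genes) and SCM (blue). The PCM medians fall from 0.36 to -0.25, while the SCM medians lie between 0.07 and -0.11.

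The genes with the largest differences on the lower side included Sdf2l1, Gadd45b, Prr13 and Cd68. Sdf2l1, a part of the chaperone complex of the endoplasmic reticulum, was at 10.4, 11.1 and 9.47 FPKM with shNdufa5_1 and at 50.0, 55.1 and 50.0 FPKM with shNdufa5_2. Its difference was -2.22 ± 0.09 (SE, limma adjusted p = 3.06e-11), and shControl lay between at 32.5 to 34.9 FPKM. The stress-inducible gene Gadd45b was at 9.43, 8.42 and 9.13 FPKM against 41.1, 40.3 and 40.8 FPKM, a difference of -2.06 ± 0.06 (adjusted p = 8.87e-13). Here shControl, at 46.6 to 49.6 FPKM, lay above both hairpins. Prr13 followed with -2.02 ± 0.08 and Cd68, which encodes a lysosomal membrane protein abundant in macrophages, with -1.88 ± 0.20 (-2.10 without replicate 2 of shNdufa5_1).

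The remaining named genes on this side were Avil, an actin-binding protein of the villin family (-1.71), Ifi27 (-1.69), Snap47 (-1.67), Chchd10, a mitochondrial intermembrane space protein (-1.67), Ddx58, the cytosolic RNA sensor RIG-I (-1.66), Nfkbia, the inhibitor IkB-alpha (-1.65), Irf7 (-1.62), Car6, a secreted carbonic anhydrase (-1.59), and Xbp1 (-1.57). H2-K2 was lower by -1.76 ± 0.26, from 0.0562 to 0.814 FPKM against 2.43 to 5.22 FPKM, but the H2 genes are close in sequence, which leaves its value uncertain. All 14 had FPKM ranges that did not overlap, which the naming rule required. Exons of Avil overlap Tsfm on the opposite strand, those of Irf7 overlap Phrf1 and those of Chchd10 overlap Mmp11, and whether fragments were counted by strand is not given in the sources used here.

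The genes with the largest differences on the higher side included Neat1, Dhx9, Mat2a and Ctgf. Neat1, the long noncoding RNA on which nuclear paraspeckles assemble, was at 31.1, 30.3 and 29.4 FPKM against 8.99, 8.70 and 8.13 FPKM, a difference of 1.70 ± 0.05 (limma adjusted p = 1.57e-12). The shControl libraries, at 11.9 to 12.8 FPKM, lay between but nearer to shNdufa5_2. Dhx9, an RNA helicase, was at 17.9, 16.7 and 18.2 FPKM against 4.86, 5.09 and 4.93 FPKM (1.64 ± 0.07, adjusted p = 2.02e-11). Mat2a, which makes S-adenosylmethionine, was at 19.8, 17.7 and 22.3 FPKM against 6.45, 5.71 and 4.99 FPKM (1.64 ± 0.08). Ogt, the enzyme that attaches O-GlcNAc to proteins, differed by 1.45 and Hnrnpa3, an RNA-binding protein, by 1.33.

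Ctgf, a secreted matricellular protein, was at 95.1, 85.1 and 96.4 FPKM against 33.0, 34.7 and 34.5 FPKM (1.41 ± 0.05, adjusted p = 8.65e-12). Inhba, a subunit of activin, differed by 1.36 and Cavin2, a coat protein of caveolae, by 1.33. The other named genes on this side were Tppp3 (1.64), Ift74, a part of the intraflagellar transport machinery (1.62), Ly6g (1.58), Myef2 (1.57), Nptx1, a neuronal pentraxin (1.52), and Cops2, a subunit of the COP9 signalosome (1.47). Exons of Cops2 overlap Galk2 on the opposite strand. Ly6g was low, at 3.10 to 4.38 FPKM against 0.451 to 0.915 FPKM, and its difference was 2.47 with a pseudocount of 0.1 and 0.66 with a pseudocount of 5. None of these 14 genes had overlapping ranges, as the rule required.

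**Figure D3:**
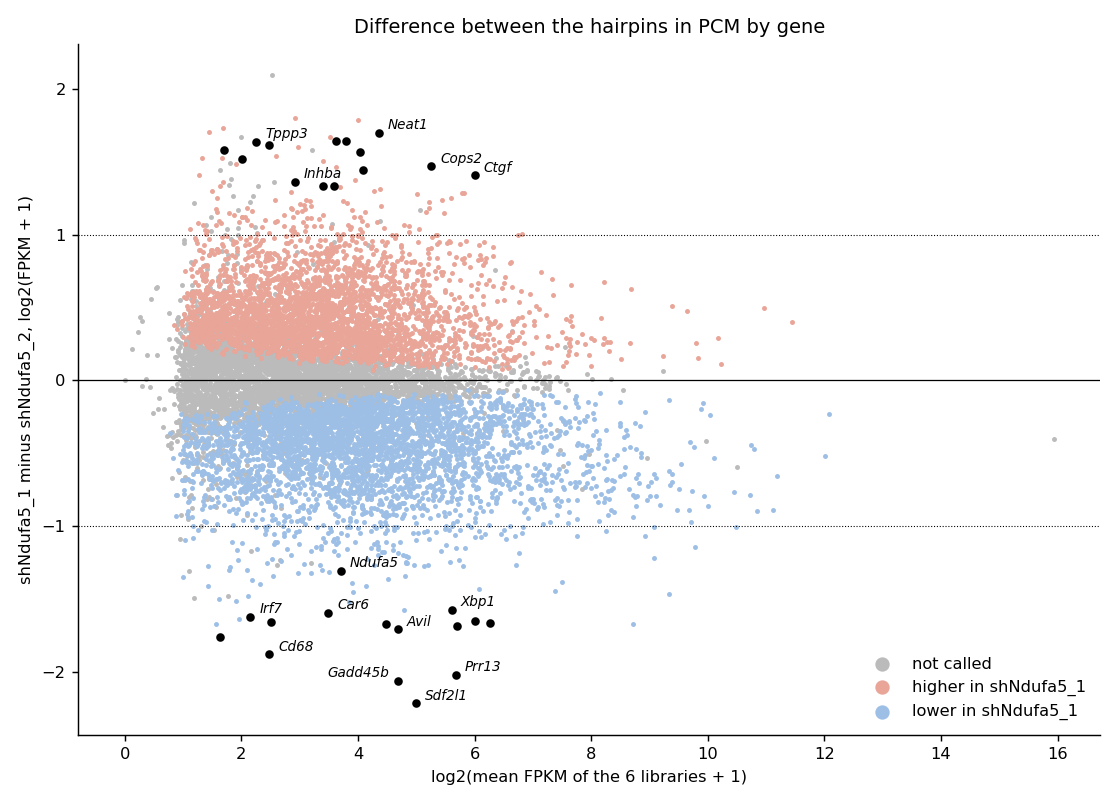
Each tested gene by its mean level over the 6 libraries (x axis, log2(FPKM + 1)) and by shNdufa5_1 minus shNdufa5_2 in PCM (y axis, log2(FPKM + 1)), red and blue where limma's adjusted p was under 0.05; dotted lines mark 2-fold. Black points are Ndufa5 and the 28 genes named by size of difference, some of them labelled, from Sdf2l1 at -2.22 to Neat1 at 1.70, while most coloured genes lie within the dotted lines.

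The position of shControl between the hairpins was described for the genes that passed. For 4905 of the 6967 genes (70.4%) the shControl mean lay between the hairpins, and for 4595 (66.0%) it lay nearer to shNdufa5_2. Choosing genes by the difference between the hairpins itself favours a shControl mean between them. The same shares over all tested genes are not given here, so these 2 shares only describe the genes that passed. Against shControl, 5839 genes (52.7%) passed with shNdufa5_1 and 3947 (35.6%) with shNdufa5_2. These 2 comparisons share the control libraries, so their values are given side by side only.

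Nuclear genes of complex I other than Ndufa5 were mostly lower with shNdufa5_1 than with shNdufa5_2. In the N module 8 of 11 tested members were lower and 1 was higher, against 33.0% lower and 29.9% higher among all genes. Their median was -0.49, beside -0.02 for all genes. With library totals it was -0.27, beside 0.17 for all genes. Ndufv3 was at 13.6, 13.9 and 14.6 FPKM against 28.3, 29.0 and 29.3 FPKM (-0.99 ± 0.07), and Ndufa7 and Ndufa2, accessory subunits of the same arm, differed by -0.77 and -0.67 (Ndufa2 GC-removed -0.41). The iron-sulfur subunit Ndufs1 went the other way, at 12.1 to 13.8 FPKM against 7.97 to 8.08 FPKM (0.64 ± 0.06). Ndufa12 had the widest difference (-1.58 ± 0.59, limma adjusted p = 0.0298), but its libraries overlapped at 9.51, 18.1 and 8.67 FPKM against 49.6, 57.8 and 16.3 FPKM. Its call ended with the GC trend removed (-1.32, adjusted p = 0.0681), with no filter on low values (adjusted p = 0.0844) and with totals without features under 300 bp (adjusted p = 0.0511). It did not pass either without any 1 of 4 libraries, replicate 1 or 3 of shNdufa5_1 (-1.45 and -1.39) or replicate 1 or 2 of shNdufa5_2 (-1.35 and -1.24).

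In the Q module, where NDUFA5 sits, all 5 other tested subunits were lower, with a median of -0.41 (GC-removed -0.12). With library totals 3 of the 5 were lower and the median was -0.19, beside 0.17 for all genes. Ndufs8 was at 76.1, 65.1 and 77.4 FPKM against 121, 114 and 121 FPKM, a difference of -0.69 (GC-removed -0.37). Ndufa9 differed by -0.42, which did not pass with library totals (-0.20, limma adjusted p = 0.0820). Ndufs3 differed by -0.38 (GC-removed -0.12), and Ndufs7, at -0.41, did not pass with the GC trend removed (-0.09). All 9 members of the proximal membrane arm were lower, with a median of -0.42 (GC-removed -0.23, with 5 of 9 passing). With library totals 3 of the 9 were lower (median -0.20), and after quantile normalization 8 were (median -0.24). Ndufa11 led at -0.81 (GC-removed -0.46) and Ndufs5 followed at -0.69. In the distal arm 9 of 10 were lower with a median of -0.54 (7 with library totals, median -0.32), led by Ndufb4 and Ndufb9, both at -0.79 (Ndufb9 GC-removed -0.46). Relative to shControl, the N, Q, proximal and distal medians were -0.30, -0.14, -0.10 and -0.32 with shNdufa5_1. With shNdufa5_2 they were 0.19, 0.27, 0.29 and 0.27. In the same order, 6, 3, 3 and 7 genes were lower and 2, 0, 0 and 0 higher with shNdufa5_1. With shNdufa5_2, 5, 4, 7 and 6 were higher and 1, 0, 0 and 0 lower.

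Assembly factors, which build complex I but are not part of it, were mixed. Of 18 tested, 8 were lower and 4 higher, with a median of -0.22 that was -0.02 with library totals and -0.13 with the GC trend removed. Foxred1 was at 5.78 to 6.06 FPKM against 9.93 to 10.97 FPKM (-0.71 ± 0.07). Tmem70 was at 36.3, 43.9 and 38.6 FPKM against 23.2, 22.99 and 23.2 FPKM (0.75 ± 0.08). Messenger RNAs of the mitochondrial genome gave 6 higher and 1 lower of 12, with a median of 0.14 that was -0.03 with the GC trend removed, 0.37 with library totals and 0.48 after quantile normalization. Mt-Nd1, a core subunit of the proximal arm, was at 2932 to 3317 FPKM against 2350 to 2449 FPKM (0.40 ± 0.04, GC-removed 0.24). The cytochrome oxidase subunit mt-Co1 differed by -0.23, but by 0.16 after quantile normalization, and did not pass with library totals (-0.01).

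Subunits of the other respiratory complexes were also mostly lower. Of 38 tested subunits of complexes II to V, 28 were lower and 1, Cox6c, was higher, with a median of -0.43. Uqcrq of complex III was at 58.4, 58.1 and 58.7 FPKM against 121, 131 and 125 FPKM (-1.09 ± 0.04, adjusted p = 1.01e-11). Cyc1, the cytochrome c1 gene, differed by -0.84 (GC-removed -0.55), and Cox6a1 and Cox8a of cytochrome oxidase by -0.83 and -0.80 (GC-removed -0.50 and -0.45). Set against shControl, 19 of the 38 were lower and 4 higher with shNdufa5_1 (median -0.15), beside 27.1% and 25.6% of all genes. With shNdufa5_2, 25 were higher and none lower (median 0.27), beside 19.3% and 16.3% of all genes. With library totals 18 of the 38 were lower and 6 higher between the hairpins, with a median of -0.21.

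Cytosolic ribosomal protein genes were lower in every tested case. All 39 passed, with a median of -0.74 that was -0.28 after quantile normalization, where 33 were lower and 1 higher. Rpl19 was at 568, 518 and 563 FPKM against 1241, 1199 and 1197 FPKM (-1.14 ± 0.04), Rpl10 differed by -1.07 and Rps16 by -1.01. After quantile normalization the same 3 genes differed by -0.67, -0.60 and -0.42. Against shControl, 28 were lower and 2 higher with shNdufa5_1 and 38 were higher with shNdufa5_2. Many of these genes have processed pseudogenes that can share fragments, so single values are uncertain, Rpl7a (-1.44 ± 0.24) among them.

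**Figure D4:**
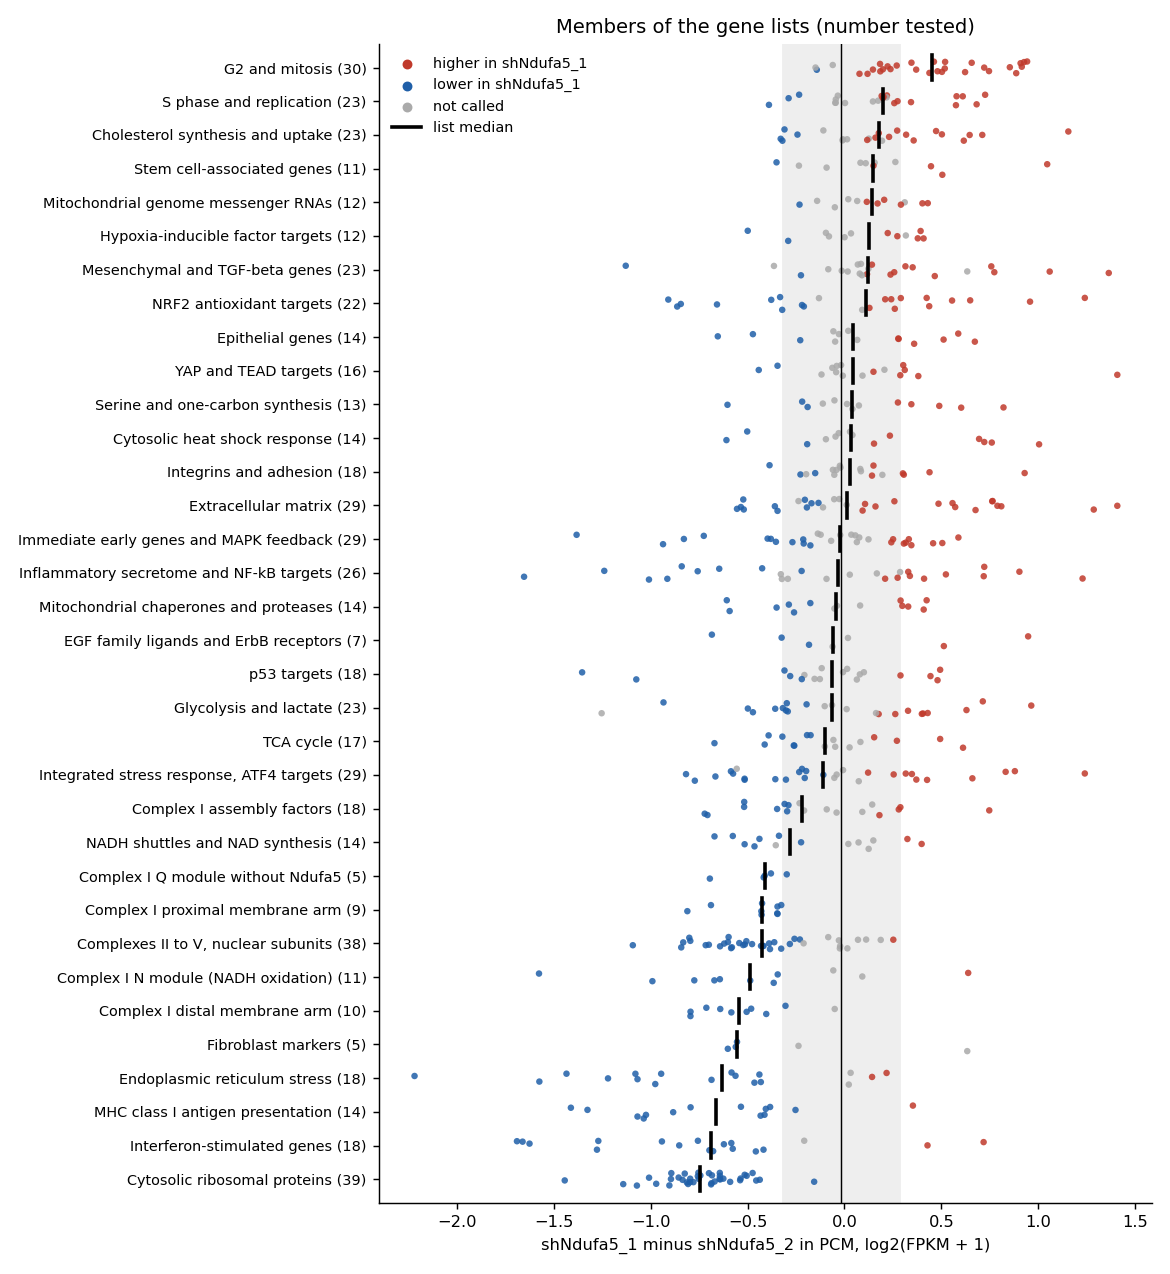
Difference between the hairpins in PCM (x axis, log2(FPKM + 1)) for the tested members of each gene list with at least 5 tested (rows, number tested in brackets), red where higher and blue where lower with shNdufa5_1 by limma's adjusted p under 0.05. Thick marks are list medians, from -0.74 for ribosomal proteins to 0.45 for G2 and mitosis, the thin line is the median of all genes and the grey band spans their quartiles.

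Chaperones and stress genes of the endoplasmic reticulum were lower with shNdufa5_1. When unfolded proteins build up in that compartment, the factors ATF6 and XBP1 switch on chaperone genes, many through the ER stress response element, ERSE. The element was searched as CCAAT, 9 bases of any kind and CCACG on both strands of RefSeq promoter windows of 300 bases (GRCm38.p6), from 250 before to 50 after the gene start. It was found in 8 of 16 genes of the list with a window (50.0%) and in 37 of 27025 genes in all (0.137%). The stretches below, read along the gene's own strand with the match in capitals, show the element in 2 genes that were much lower, 1 that was moderately lower and 1 that was not.
Hspa5, chr2:34772010-34772058, plus strand: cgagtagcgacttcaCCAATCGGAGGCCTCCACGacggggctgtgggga
Calr, chr8:84847060-84847108, minus strand: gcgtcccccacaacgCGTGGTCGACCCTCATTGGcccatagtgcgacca
Syvn1, chr19:6046517-6046565, plus strand: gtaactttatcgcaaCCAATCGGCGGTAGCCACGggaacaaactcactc
Hsp90b1, chr10:86705623-86705671, minus strand: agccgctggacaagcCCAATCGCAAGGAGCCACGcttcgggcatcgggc
In Calr the element lies in the opposite orientation, and the Hsp90b1 window holds another match in that orientation. A match is a description of the letters and not a measured binding site.

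Of the 18 genes tested on this list, 14 were lower and 2 higher, with a median of -0.63 (14 and 4, median -0.42, with library totals). Relative to shControl, 14 were lower and 1 higher with shNdufa5_1 (median -0.33), beside 27.1% and 25.6% of all genes. With shNdufa5_2, 12 were higher and 2 lower than shControl (median 0.24), beside 19.3% and 16.3% of all genes. Hspa5, the chaperone BiP, was at 322, 325 and 319 FPKM with shNdufa5_1 and at 761, 758 and 734 FPKM with shNdufa5_2 (-1.22 ± 0.02, limma adjusted p = 7.66e-15, and -0.74 after quantile normalization). The hairpins were far apart, and shControl, at 712 to 724 FPKM, lay just below shNdufa5_2. Xbp1, the transcription factor of the response, was at 23.2, 22.9 and 24.7 FPKM against 73.3, 73.7 and 69.7 FPKM (-1.57 ± 0.03), with shControl at 72.5 to 74.7 FPKM. Manf, a secreted protein of the endoplasmic reticulum, differed by -1.43 and Hyou1, a chaperone of the Hsp110 family, by -1.08. Exons of Manf overlap Rbm15b on the same strand and Dcaf1 on the opposite strand.

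Genes with the element did not move as 1 block. Of the 8, 5 were lower, namely Hspa5, Calr, the calcium-binding chaperone (-1.07), Creld2 (-0.98), Syvn1, a ubiquitin ligase of protein quality control (-0.69), and Pdia6, a disulfide isomerase (-0.58). Hsp90b1, the chaperone GRP94, was at 152, 161 and 153 FPKM against 160, 153 and 144 FPKM and did not pass (0.03, 95% interval -0.06 to 0.12). Canx and Dnajc3, a membrane chaperone and a co-chaperone, were higher by 0.14 and 0.22. With the GC trend removed the list gave 16 lower and none higher, with a median of -0.60.

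The stress genes placed under ATF4, the factor of the integrated stress response, were split. Of 29 tested, 14 were lower and 10 higher, with a median of -0.11 that was 0.12 with library totals, 0.05 after quantile normalization and GC-removed -0.005. Ddit3, the factor CHOP, was at 91.7, 91.2 and 87.1 FPKM against 169, 166 and 144 FPKM (-0.82 ± 0.05), Trib3 differed by -0.67, Asns, asparagine synthetase, by -0.57 and Atf4 itself by -0.52. Slc7a11, the cystine transporter, was at 10.6, 11.3 and 11.6 FPKM against 3.97, 4.09 and 4.39 FPKM (1.24 ± 0.07, GC-removed 0.79), and the factor genes Cebpg and Atf5 were higher by 0.88 and 0.83. Exons of Ddit3 overlap Mars and those of Atf5 overlap Nup62 on the opposite strand. Genes of serine and one-carbon synthesis were also mixed, with 5 of 13 higher, among them Mthfd1l (0.82) and Shmt2 (0.49), and 3 lower, with Pycr1 at -0.60. Their median was 0.04 (GC-removed 0.12, and 0.26 with library totals).

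Interferon-stimulated genes and genes of MHC class I antigen display were lower with shNdufa5_1. Many genes switched on by interferons carry the interferon-stimulated response element, ISRE, near their start. It was searched as GAAA, 2 bases of any kind and GAAA on both strands of the same windows and found in 12 of 22 interferon-stimulated genes with a window (54.5%), in 4 of 15 MHC class I genes (26.7%) and in 1079 of 27025 genes in all (3.99%). The stretches below show it, in capitals, in 3 genes that were lower and in Ifit1, which was higher.
Isg15, chr4:156200866-156200905, minus strand: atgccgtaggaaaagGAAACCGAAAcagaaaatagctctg
Bst2, chr8:71537572-71537611, minus strand: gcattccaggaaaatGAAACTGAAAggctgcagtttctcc
B2m, chr2:122147533-122147572, plus strand: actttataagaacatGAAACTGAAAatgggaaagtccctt
Ifit1, chr19:34640770-34640809, plus strand: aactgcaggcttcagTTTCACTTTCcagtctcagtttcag
In Ifit1 the element lies in the opposite orientation, and in Isg15, Bst2 and Ifit1 the window holds further matches, which overlap the one shown in Isg15 and Bst2.

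Of 34 interferon-stimulated genes listed, 18 were tested, of which 15 were lower and 2 higher, with a median of -0.69. Irf7, a transcription factor that amplifies the response, was at 1.14, 1.21 and 1.19 FPKM against 5.72, 5.44 and 6.03 FPKM (-1.62 ± 0.10), and shControl, at 1.35 to 1.75 FPKM, lay near shNdufa5_1. The interferon-induced gene Ifi27 was at 26.1, 21.96 and 22.7 FPKM against 78.4, 78.1 and 77.8 FPKM (-1.69 ± 0.06), with shControl at 41.0 to 42.3 FPKM. For both genes the libraries labelled shNdufa5_2 were the highest of the 3 groups. Bst2, the antiviral protein tetherin, was at 43.6, 44.1 and 41.5 FPKM against 85.05, 83.0 and 82.7 FPKM (-0.94 ± 0.06), and Isg15, a ubiquitin-like modifier, at 3.28, 8.39 and 3.87 FPKM against 11.6, 16.3 and 11.6 FPKM (-1.27 ± 0.25). Against shControl, 13 of the 18 were higher and none lower with shNdufa5_2 (median 0.54), and 3 were higher and 4 lower with shNdufa5_1 (median -0.11).

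The exceptions were Ifit1 and Ifit2, genes of antiviral RNA-binding proteins. Ifit2 was at 8.16, 7.85 and 8.18 FPKM against 4.59, 4.71 and 4.24 FPKM (0.72 ± 0.07) and Ifit1 at 2.09 to 2.36 FPKM against 1.17 to 1.51 FPKM (0.43 ± 0.10). Of the 6 tested interferon-stimulated genes with an ISRE match, 5 were lower and Ifit1 was higher, beside 15 lower of all 18 tested. Whether the match sets lower genes apart was not tested, and with most tested genes lower these counts cannot show it.

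For MHC class I, 13 of 14 tested genes were lower and 1, the peptide-trimming protease gene Erap1, was higher, with a median of -0.66. Of the 4 tested MHC class I genes with an ISRE match, 3 were lower and Erap1 was higher. B2m, the light chain shared by class I molecules, was at 209, 191 and 196 FPKM against 440, 403 and 384 FPKM (-1.04 ± 0.05, and -0.69 after quantile normalization). Tap1, a subunit of the peptide transporter, was at 3.74, 3.37 and 3.30 FPKM against 10.2, 10.5 and 9.89 FPKM (-1.33 ± 0.07), and Psme2, a proteasome activator subunit, differed by -1.41. Values for the 4 tested H2 genes of this list, from -0.38 for H2-K1 to -1.02 for H2-Q4, are uncertain because the genes share sequence. With the GC trend removed the list gave 10 lower and none higher, with a median of -0.44. Against shControl, 9 were lower with shNdufa5_1 and 10 higher with shNdufa5_2.

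In the inflammatory secretome and NF-kB list the direction differed from gene to gene. Of 26 tested, 9 were lower and 10 higher, with a median of -0.03 that was 0.16 with library totals and -0.12 with the GC trend removed. Nfkbia was at 29.8, 28.6 and 31.3 FPKM against 99.0, 95.4 and 94.2 FPKM (-1.65 ± 0.05), and shControl lay above both at 108 to 121 FPKM. Relb and Nfkb2, of the noncanonical NF-kB arm, differed by -1.01 and -0.84, the chemokine gene Ccl5 by -1.24 and Lcn2 by -0.91. Plau, the urokinase gene, was at 11.02, 13.1 and 10.8 FPKM against 4.42, 4.36 and 4.37 FPKM (1.23 ± 0.10), and the chemokine genes Ccl2 and Cxcl12 were both higher by 0.72.

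Genes of G2 and mitosis were higher with shNdufa5_1. Of 30 tested, 27 were higher and 1, Cdk1, was lower by -0.14, with a median of 0.45 (GC-removed 0.33). Top2a, the topoisomerase that untangles replicated chromosomes, was at 60.8, 59.3 and 59.3 FPKM against 31.6, 30.3 and 30.1 FPKM (0.94 ± 0.04, GC-removed 0.61), with shControl at 32.7 to 34.7 FPKM. Cyclin A2 gene Ccna2 was at 49.7, 46.0 and 50.1 FPKM against 26.6, 25.2 and 24.5 FPKM (0.91 ± 0.04), and the kinetochore genes Cenpf and Cenpe differed by 0.93 and 0.91 (GC-removed 0.55 and 0.58). Mki67, the proliferation marker Ki-67, was higher by 0.48. Against shControl, 28 of the 30 were higher with shNdufa5_1 (median 0.57) and 16 higher and 3 lower with shNdufa5_2 (median 0.12).

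S phase genes gave 12 higher and 3 lower of 23, with a median of 0.20. With library totals 16 were higher and none lower (median 0.41, beside 0.17 for all genes on that scale). Rrm2, a subunit of ribonucleotide reductase, differed by 0.68 and the helicase gene Mcm4 by 0.58, while the licensing genes Cdc6 and Cdt1 were lower by -0.39 and -0.29. Cholesterol synthesis and uptake gave 13 higher and 4 lower of 23, with a median of 0.18, and 16 higher and none lower with library totals (median 0.38). Idi1, an isomerase of the isoprenoid pathway, was at 9.29, 10.2 and 9.59 FPKM against 3.83, 3.81 and 3.75 FPKM (1.16 ± 0.09).

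Carbon metabolism outside the respiratory chain moved in both directions. In glycolysis 9 of 23 genes were higher and 9 lower, with a median of -0.06 that was 0.16 with library totals or with the GC trend removed. Pfkl, a phosphofructokinase subunit, was at 17.9, 20.3 and 17.6 FPKM against 8.93, 9.19 and 9.003 FPKM (0.96 ± 0.05), Pdk1, which restrains pyruvate dehydrogenase, differed by 0.71 and the pyruvate kinase gene Pkm by 0.63. Eno2, an enolase, was lower by -0.93. In the TCA cycle 4 of 17 were higher and 8 lower, with a median of -0.10 that was 0.12 with library totals. Mdh2, the mitochondrial malate dehydrogenase, differed by -0.67 (-0.36 after quantile normalization). Of the genes of NADH shuttles and NAD synthesis, 7 of 14 were lower and 2 higher, with a median of -0.28 (-0.06 with library totals, where 4 were lower and 4 higher). Those of the malate-aspartate shuttle, which moves reducing equivalents of NADH into mitochondria, included Got1 (-0.67), Slc25a12 (-0.52) and Got2 (-0.46).

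Antioxidant genes placed under NRF2 gave 11 higher and 9 lower of 22, with a median of 0.11 (0.33 with library totals). Gsr, glutathione reductase, was at 58.4, 64.9 and 60.3 FPKM against 33.4, 29.8 and 29.9 FPKM (0.96 ± 0.08), and the glutathione synthesis genes Gclm and Gclc were higher by 0.65 and 0.56. Sod1, superoxide dismutase, and the ferritin light chain gene Ftl1 were lower by -0.91 and -0.86 (the latter GC-removed -0.52). Hypoxia-inducible factor targets gave 5 higher and 2 lower of 12 (median 0.13, GC-removed 0.07, and 0.34 with library totals), mitochondrial chaperones and proteases 5 and 6 of 14 (median -0.05, GC-removed -0.09, and 0.18 with library totals), and p53 targets 4 and 5 of 18 (median -0.06, GC-removed 0.03, and 0.15 with library totals). Plk2, a p53 target kinase, was at 41.9, 44.2 and 44.4 FPKM against 94.2, 92.1 and 91.6 FPKM (-1.07 ± 0.04).

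Matrix, adhesion and growth factor genes were mixed as lists, with large single differences. In the extracellular matrix list 14 of 29 were higher and 10 lower, with a median of 0.01 that was 0.24 with library totals and GC-removed 0.10. Beside Ctgf, Thbs1, a matricellular protein that activates TGF-beta, was at 75.2, 77.7 and 79.4 FPKM against 30.7, 30.8 and 32.0 FPKM (1.29 ± 0.04). Col6a1 and Loxl2 were higher by 0.81 and 0.79, and Hspg2, perlecan, was lower by -0.53. Mesenchymal and TGF-beta genes gave 11 higher and 2 lower of 23 (median 0.12, and 0.34 with library totals), and Tgfb1 was lower, at 14.4, 13.9 and 14.1 FPKM against 31.5, 32.6 and 32.2 FPKM (-1.13 ± 0.05). YAP and TEAD targets gave 6 higher and 2 lower of 16 (median 0.04, and 0.26 with library totals), and beside Ctgf the related gene Cyr61 was lower by -0.35, which did not pass with library totals (-0.12), with the GC trend removed (-0.10) or after quantile normalization (-0.04).

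Immediate early and MAPK feedback genes gave 9 higher and 11 lower of 29, with a median of -0.02 that was 0.20 with library totals and GC-removed 0.12. Fosl1, an AP-1 subunit, was at 103, 97.4 and 97.6 FPKM against 264, 262 and 255 FPKM (-1.38 ± 0.03), Jun differed by -0.94 and the phosphatase gene Dusp4 by -0.83. Exons of Fosl1 overlap Ccdc85b on the opposite strand. Of the EGF family ligands and receptors 2 of 7 were higher and 3 lower (median -0.06, GC-removed 0.03, and 0.14 with library totals), with Areg, amphiregulin, at 0.95 and Hbegf at -0.68. Epithelial genes gave 6 higher and 3 lower of 14 (median 0.04, GC-removed 0.28, and 0.23 with library totals), with keratin gene Krt7 higher by 0.67 and the claudin gene Cldn3 lower by -0.65 (GC-removed -0.32). Integrins and adhesion gave 6 and 3 of 18 (median 0.03, GC-removed 0.02, and 0.23 with library totals), with Itga6 at 0.93. Stem cell-associated genes gave 4 and 1 of 11 (median 0.15, and 0.37 with library totals), with the Polycomb gene Bmi1 at 1.05. Cytosolic heat shock genes gave 6 and 3 of 14 (median 0.04, GC-removed 0.17, and 0.25 with library totals), with Hsp90aa1 at 1.00.

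Immune and endothelial markers were mostly near 0, while some fibroblast and mesothelial markers were not. Of 14 immune markers 7 were listed at 0 in all 6 libraries, among them the macrophage gene Adgre1 and the T cell gene Cd3e, and the pan-leukocyte gene Ptprc was at most 0.0033 FPKM. Only Cd68 was tested, at 0.751, 2.17 and 1.31 FPKM with shNdufa5_1, 8.27, 6.13 and 8.70 FPKM with shNdufa5_2 and 2.01 to 2.20 FPKM with shControl. The summed immune marker level was 1.22 to 2.17 FPKM with shNdufa5_1 and 6.18 to 8.70 FPKM with shNdufa5_2, nearly all of it Cd68. Of 8 endothelial markers only Plvap was tested (-1.22 ± 0.12), while Pecam1 was at most 0.02 FPKM in the 6 libraries. The summed endothelial level was 2.25 to 2.70 FPKM against 6.90 to 7.47 FPKM. Of 11 fibroblast markers 5 were tested and 3 were lower, Pdpn (-0.60), Pdgfra (-0.56) and Dcn (-0.55, GC-removed -0.95). The 2 other tested members did not pass, and the highest difference on the list was 0.63. With library totals 3 were lower and 1 was higher. Thy1 and Fap were listed at 0, and the summed level was 26.9 to 27.5 FPKM against 39.5 to 41.0 FPKM. Of 8 mesothelial markers Msln and Krt19 were tested, both higher (0.40 and 0.28, GC-removed 0.62 and 0.59), and Wt1 was listed at 0. The summed mesothelial level was 352 to 360 FPKM with shNdufa5_1 and 284 to 291 FPKM with shNdufa5_2. As to the labelled cell line, the keratin genes Krt7, Krt8 and Krt18 were high in all 6 libraries, at 127 FPKM or more, while Epcam was at most 0.202 FPKM and Cdh1 at most 0.893 FPKM.

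The same comparison of hairpins was available in SCM, from libraries whose values do not enter the PCM differences. Both comparisons came from the same model, so they share its variance estimates and its filter. In SCM 5971 genes (53.9%) passed, 2942 higher (26.5%) and 3029 lower (27.3%) with shNdufa5_1. Fitted on the libraries of each comparison alone, 6524 genes passed in PCM and 5791 in SCM. Differences in the 2 media correlated across the 11084 genes (Pearson r = 0.73, Spearman rho = 0.73; genes are not independent replicates, and GC content is shared), and at r = 0.75 with the GC and length trends removed. Of the genes that passed in both, 4553 had the same direction, 65.4% of those in PCM and 76.3% of those in SCM, and 226 had opposite directions. Of the 299 genes with at least a 2-fold difference in PCM, 255 (85.3%) passed the same way in SCM. Ndufa5 differed by -1.25 in SCM, at 6.46, 6.78 and 6.23 FPKM against 14.6, 16.1 and 20.2 FPKM.

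The groups with the largest medians in PCM had medians of the same sign in SCM. Ribosomal proteins had 38 of 39 lower (median -0.57), endoplasmic reticulum stress genes 18 of 18 lower (median -0.56), interferon-stimulated genes 15 of 18 lower (median -0.65) and MHC class I genes 9 of 14 lower (median -0.52). Genes of G2 and mitosis had 28 of 30 higher (median 0.41) and nuclear subunits of complexes II to V had 26 of 38 lower (median -0.28). Cholesterol genes had 19 of 23 higher (median 0.47). Other lists had medians of opposite sign in the 2 media. They were glycolysis (-0.06 in PCM, 0.29 in SCM with 14 higher and 6 lower), mitochondrial messenger RNAs (0.14 and -0.07, with 2 higher and 4 lower in SCM), ATF4 targets (-0.11 and 0.09), the TCA cycle (-0.10 and 0.07), immediate early genes (-0.02 and 0.20), mitochondrial chaperones (-0.05 and 0.05), extracellular matrix (0.01 and -0.05) and integrins (0.03 and -0.03).

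The test of the difference between the media, PCM difference minus SCM difference, passed for 2326 genes (21.0%), 1215 above 0 (11.0%) and 1111 below 0 (10.0%). With library totals it passed for 974 genes, 890 above and 84 below, and with the GC trend removed for 1248 genes, 634 above and 614 below. For cholesterol genes it passed for 12 of 23, all below 0, and for glycolysis genes for 11 of 23, all below 0. Pkm differed by 0.63 in PCM and 0.83 in SCM. For endoplasmic reticulum stress genes it passed for 4 above and 2 below 0, and the median of the differences was 0.01. Xbp1 differed by -1.57 in PCM and -1.04 in SCM, while Hspa5 differed by -1.22 in both, and Hsp90b1 by 0.03 and -0.49.

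**Figure D5:**
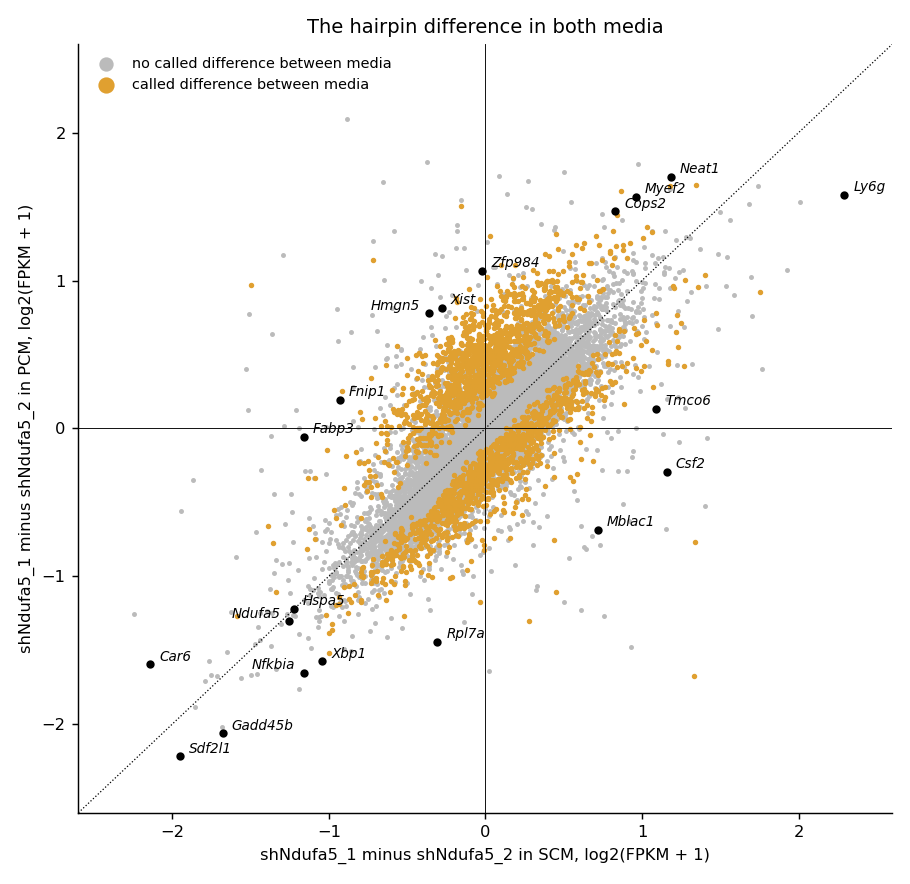
Difference shNdufa5_1 minus shNdufa5_2 on log2(FPKM + 1) in SCM (x axis) and in PCM (y axis) for the 11084 tested genes, orange for the 2326 whose difference between the media passed limma's test; the dotted line marks equal differences. Points follow the dotted line (Pearson r = 0.73), with Sdf2l1 and Gadd45b at the lower left, Ly6g and Neat1 at the upper right, and Csf2 and Xist away from it.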

How the data were processed

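The authors deposited FPKM values for 18 libraries. The submitters' processing notes list STAR 2.6.1, DESeq2, GRCm38 and mm10, without roles. Nothing used here gives the counter, gene lengths, annotation release or strand setting, so overlapping and near-identical genes are uncertain. RNA was extracted with Trizol and a column with DNase, and libraries were made with NEBNext Ultra II, per the labels' protocols.

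From these values, log2(FPKM + 1), a scale that understates changes of low genes, was fitted with limma 3.58.1 in R 4.3.3. A single model over 6 groups of 3 libraries (12 residual degrees of freedom, trended variance, no replicate block) held the 11084 genes with a mean of at least 1 FPKM. Tests were two-sided with Benjamini-Hochberg adjustment over all genes at 0.05. The fit was tested on simulated data. Depth, 13.8 to 38.9 M fragments over the 18 libraries, came from the steps of values of at most 20 fragments, of which 96.6 to 99.8% were whole within 0.1 fragments. Of the gene identifiers, 99.9% were in GENCODE vM21 (GRCm38), which gave positions, exon lengths and GC content. Promoter stretches are RefSeq's (GRCm38.p6).

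The contrast and the 37 gene lists (754 members) were chosen with earlier results of these data known. Named were Ndufa5, the 14 genes with the largest difference in each direction among those that passed with ranges that did not overlap (clone, model and pseudogene names, small RNAs and mitochondrial features passed over), up to 4 members per list, and the 5 largest differences between media in each direction. Further list members were named after their values were seen. Alternatives were other pseudocounts (0.1 and 5), filters, scalings, removal of GC and length trends (splines with 5 degrees of freedom), a replicate block, a fit on the contrast's libraries alone and leaving out each library. Scaling by fragment totals and by totals without features under 300 bp was added after the data were seen. Results on some items are not reported here.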

Additional observations from a re-analysis of the deposited data

Results flagged for a closer look

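The results here are those whose difference between the hairpins itself differed between PCM and SCM by limma's test of that difference, which passed for 2326 of 11084 genes. Values are the PCM difference minus the SCM difference on log2(FPKM + 1), from 3 libraries per group, and explanations were not weighed.

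Among the genes named for their size in PCM, Neat1 (0.52), Dhx9 (0.30), Mat2a (0.46), Myef2 (0.61), Cops2 (0.64), Ogt (0.60), Inhba (0.33) and Hnrnpa3 (0.52) were higher with shNdufa5_1 in both media and more so in PCM. Ly6g (-0.71) was higher in both and more so in SCM. Gadd45b (-0.39), Nfkbia (-0.50) and Xbp1 (-0.53) were lower in both and more so in PCM, and Car6 (0.54) was lower in both and more so in SCM. Choosing genes by their size in PCM itself favours larger differences in PCM than in SCM. With the GC and length trend removed, the test between media passed for 1248 genes instead of 2326. The PCM differences of the genes given as more so in PCM were then smaller. Neat1 was at 1.48 (from 1.70) and Hnrnpa3 at 0.98 (from 1.33). Their differences between media with that trend removed are not given here.

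The largest differences between the media below 0 were those of Csf2 (-1.45), Mblac1 (-1.40), Rpl7a (-1.14), Tmco6 (-0.96) and Them6 (-0.91). Csf2, which encodes the cytokine GM-CSF, was at 14.2, 9.67 and 16.9 FPKM with shNdufa5_1 and 17.9, 15.9 and 15.6 FPKM with shNdufa5_2 in PCM, where the libraries overlapped (-0.29), and higher by 1.16 in SCM. Exons of Tmco6 overlap the more abundant complex I gene Ndufa2 on the opposite strand, and Rpl7a has pseudogenes, so both are uncertain.

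Above 0 they were Hmgn5 (1.14), Fnip1 (1.13), Fabp3 (1.10), Xist (1.09) and Zfp984 (1.09). Xist, the RNA that coats the inactive X chromosome, was at 89.1, 89.4 and 95.5 FPKM against 50.1, 53.3 and 51.0 FPKM in PCM (0.82, and 0.37 with the GC and length trend removed) and lower by -0.28 in SCM. Fabp3 was at 1.04 to 1.94 FPKM against 1.12 to 2.07 FPKM in PCM, and its exons overlap Zcchc17 on the opposite strand.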

How the results depend on the processing

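Between the hairpins in PCM, the count of genes that passed (6967) ran from 5355 with a filter at 5 FPKM, which tests fewer genes, to 7228, and from 6512 to 6687 without 1 library. Higher and lower genes numbered 3092 to 3167 and 3413 to 3520 without 1 library. Only scaling moved these counts by over 1.5 times: library totals gave 1797 lower genes, and totals without features under 300 bp gave 5080 higher and 2148 lower. In SCM the count was 5971 (5351 to 5519 without 1 library; 2612 to 2711 higher and 2739 to 2838 lower), and the same scalings gave 1652 lower, and 4741 higher with 1695 lower. The count of differences between media (2326) was 1791 to 2298 without 1 library (999 to 1184 above and 792 to 1114 below 0), 974 with library totals (84 below 0), 1248 with GC and length trends removed (634 above, 614 below) and 1153 with these and the replicate block (575 above, 578 below). The cause of these shifts was not tested. Ndufa5 ran from -1.42 to -0.97 over the alternatives and from -1.34 to -1.26 without 1 library, and passed in each. Of the 165 single genes followed, direction reversed for Fnip1 with the GC and length trend removed, with and without the block (-0.21), and for mt-Co1 after quantile normalization (0.16). Replicate numbers did not pair the hairpins: same-numbered libraries correlated at -0.05, 0.02 and -0.04 in PCM. With a replicate block 6930 genes passed in PCM (3285 higher, 3645 lower), 5917 in SCM and 2273 for the difference between media, and Ndufa5 stayed at -1.31. Genes near the filter of 1 FPKM rest on few fragments, and their differences shrink with a pseudocount of 5 by its construction.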

Other observations

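RNA-binding genes of the nucleus were mostly higher with shNdufa5_1 in PCM, a group gathered after Neat1, Dhx9 and Hnrnpa3 had been seen and therefore given without a test. Of 20 tested genes with an hnRNP symbol, which coat nascent transcripts and steer splicing, 19 were higher and 1, Hnrnpc, was lower (-0.81), beside 29.9% and 33.0% of all genes. Their median was 0.59, and 0.47 with the GC and length trend removed. Hnrnpa2b1 differed by 1.29, Hnrnpu by 1.25, Hnrnpm by 1.24 and Hnrnph1 by 1.22. Of 11 paraspeckle genes, which include Neat1 and Hnrnpk, 10 were higher and 1, Nudt21, was lower (-0.34), with a median of 0.77 (0.47 with the trend removed). Pspc1 differed by 1.29, Sfpq by 1.16, Ewsr1 by 1.15 and Nono by 0.43.

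Other groups gathered after their values were seen went the other way. Of 11 tested inhibitors and feedback regulators of NF-kB, 7 were lower and 2 higher with a median of -0.92, including Nfkbie (-1.32), Traf1 (-1.13) and Tnip1 (-0.92), while Nfkbiz was higher (0.87) and Tnfaip3 did not pass (-0.09). Of 13 tested host genes of small nucleolar RNAs, 8 were lower and 2 higher with a median of -0.40, including Snhg12 (-1.34), Zfas1 (-1.25), Snhg15 (-1.18) and Gas5 (-0.61).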
